A study of Mus musculus with 4 samples.

Results

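SHP (NR0B2) belongs to the nuclear receptors but cannot contact DNA by itself, and other proteins hold it on chromatin. The genes described here are the cytochrome P450 genes of the CYP2, CYP3 and CYP4 families, which oxidize drugs, steroids, fatty acids and eicosanoids in the liver. They were taken from the annotation by symbol, as every protein-coding gene named Cyp2, Cyp3 or Cyp4 followed by a letter, which gave 76 of 22380 protein-coding genes: 50 of CYP2, 9 of CYP3 and 17 of CYP4. SHP binding peaks within 5 kb of their gene bodies were then taken from the deposited peak lists, which gave 20 of 1508 peaks with vehicle and 16 of 3155 with FGF19. The regions were chosen by the authors' peak calls, that is by pileup over input background at a q-value of 0.05, so the counts of peaks below are a description and no test was made of them.

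All mice were male wildtype C57BL/6, 8 to 12 weeks old, fasted for 12 h, and received vehicle or FGF19 at 1 mg/kg through the tail vein. Livers were taken 2 h later, and chromatin from 3 mice in each group was pooled into 1 SHP ChIP library with 1 input library. There is therefore no replicate error, and no difference between the groups carries a p-value. The vehicle ChIP library had 15473647 tags after the authors' filter and the FGF19 library 13444078, and tags were extended to 240 and 260 bp. All positions are in mm9. A peak list holds no measure of cell type markers, so the labelled tissue was not checked.

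P450 enzymes of these families sit in the membrane of the endoplasmic reticulum, carry a heme held by a cysteine near the C-terminal end of the protein, and take electrons from cytochrome P450 reductase. Their transcription in hepatocytes is driven by HNF4A and by ligand-activated receptors: the xenobiotic receptors CAR and PXR act on Cyp2b, Cyp2c and Cyp3a genes, and PPARA acts on Cyp4a genes. FGF19 and its mouse counterpart FGF15 are gut hormones released after a meal that lower bile acid synthesis in the liver.

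The stretches that carry the pattern are printed here from the mm9 genome, 5′ to 3′ along the transcript, with exon bases in capitals and intron bases in lower case. They span at most 100 bases on each side of a peak summit, shortened where an untranslated part began. For the Cyp2c29, Cyp3a11 and Cyp3a25 last exons the summit itself lay in the untranslated part and is not in the printed stretch, which runs from the peak's upstream edge to the end of the coding sequence. The 3 peaks with a summit within 1 kb of an annotated transcription start site (TSS), all in coding exon sequence, are shown as the only peaks classed as promoter peaks.
Cyp2d9 exon 1, vehicle summit, chr15:82282882-82283062, plus strand: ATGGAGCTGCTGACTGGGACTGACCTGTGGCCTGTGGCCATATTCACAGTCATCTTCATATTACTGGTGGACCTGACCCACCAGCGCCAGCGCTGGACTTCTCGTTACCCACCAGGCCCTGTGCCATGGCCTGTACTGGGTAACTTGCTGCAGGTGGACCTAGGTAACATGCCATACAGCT
Cyp2f2 exon 8, vehicle summit, chr7:27916185-27916385, plus strand: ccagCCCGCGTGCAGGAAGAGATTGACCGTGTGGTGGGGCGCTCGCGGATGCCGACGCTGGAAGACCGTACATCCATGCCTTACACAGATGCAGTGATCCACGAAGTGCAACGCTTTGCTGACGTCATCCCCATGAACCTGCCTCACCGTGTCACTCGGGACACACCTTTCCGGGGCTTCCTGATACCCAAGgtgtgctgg
Cyp2e1 exon 1, FGF19 summit, chr7:147949750-147949931, plus strand: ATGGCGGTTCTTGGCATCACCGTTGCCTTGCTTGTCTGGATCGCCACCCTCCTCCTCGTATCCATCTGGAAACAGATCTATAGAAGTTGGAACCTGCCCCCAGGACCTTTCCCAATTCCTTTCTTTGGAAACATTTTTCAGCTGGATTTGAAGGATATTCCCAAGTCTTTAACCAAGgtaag

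The last exons are shown because they held the largest fold enrichments at these genes, and, for Cyp3a25, the largest rise from vehicle to FGF19 as a ratio.
Cyp2c29 exon 9, vehicle peak, coding end, chr19:39404652-39404920, plus strand: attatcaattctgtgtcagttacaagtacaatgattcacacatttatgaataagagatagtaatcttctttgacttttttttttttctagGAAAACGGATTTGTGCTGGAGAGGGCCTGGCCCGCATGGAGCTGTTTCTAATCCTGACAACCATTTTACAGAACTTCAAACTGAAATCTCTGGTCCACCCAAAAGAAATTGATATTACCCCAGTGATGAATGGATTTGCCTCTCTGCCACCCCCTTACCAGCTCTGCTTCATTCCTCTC
Cyp3a11 exon 13, FGF19 peak, coding end, chr5:146666646-146666877, minus strand: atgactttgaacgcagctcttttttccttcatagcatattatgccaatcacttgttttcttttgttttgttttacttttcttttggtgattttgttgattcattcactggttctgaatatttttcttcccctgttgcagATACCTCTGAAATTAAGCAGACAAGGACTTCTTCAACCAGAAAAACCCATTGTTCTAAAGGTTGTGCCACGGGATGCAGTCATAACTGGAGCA
Cyp2e1 exon 9, FGF19 summit, chr7:147960466-147960638, plus strand: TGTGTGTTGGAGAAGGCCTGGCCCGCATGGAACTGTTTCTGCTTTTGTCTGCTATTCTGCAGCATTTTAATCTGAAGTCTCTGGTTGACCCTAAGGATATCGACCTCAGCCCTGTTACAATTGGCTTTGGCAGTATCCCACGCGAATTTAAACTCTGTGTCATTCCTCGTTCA
Cyp3a25 exon 13, FGF19 peak, coding end, chr5:146789186-146789376, minus strand: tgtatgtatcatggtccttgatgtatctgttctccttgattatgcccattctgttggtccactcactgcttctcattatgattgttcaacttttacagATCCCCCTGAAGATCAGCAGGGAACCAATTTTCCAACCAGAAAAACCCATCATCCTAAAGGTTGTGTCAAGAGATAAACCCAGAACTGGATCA

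The inner exons are shown because each lies whole inside a window of 201 bases around a summit, and because Cyp3a11 exon 12 held the largest fall from vehicle to FGF19 as a ratio.
Cyp2e1 exon 7, vehicle summit, chr7:147958908-147959108, plus strand: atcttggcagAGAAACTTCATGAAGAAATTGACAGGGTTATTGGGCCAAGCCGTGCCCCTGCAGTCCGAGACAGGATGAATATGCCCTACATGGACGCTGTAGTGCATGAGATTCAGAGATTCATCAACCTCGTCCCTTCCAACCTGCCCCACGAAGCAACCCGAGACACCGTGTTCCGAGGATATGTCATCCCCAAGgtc
Cyp3a11 exon 12, vehicle summit, chr5:146670282-146670482, minus strand: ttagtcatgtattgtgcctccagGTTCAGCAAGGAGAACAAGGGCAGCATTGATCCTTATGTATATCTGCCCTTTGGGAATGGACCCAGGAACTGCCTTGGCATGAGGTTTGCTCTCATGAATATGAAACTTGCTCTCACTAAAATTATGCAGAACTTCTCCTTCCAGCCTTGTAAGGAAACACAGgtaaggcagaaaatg
Cyp3a11 exon 10, vehicle summit, chr5:146673919-146674119, minus strand: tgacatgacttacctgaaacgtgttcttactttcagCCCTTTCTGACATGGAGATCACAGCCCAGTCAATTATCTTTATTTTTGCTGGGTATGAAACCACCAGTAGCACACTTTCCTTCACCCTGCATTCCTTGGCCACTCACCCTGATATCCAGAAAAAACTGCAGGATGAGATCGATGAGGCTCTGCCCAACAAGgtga

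SHP peaks were found at 7 of the 76 genes: Cyp2c29, Cyp2d9, Cyp2d26, Cyp2e1, Cyp2f2, Cyp3a11 and Cyp3a25. With vehicle all 7 had a peak (9.21% of 76, Wilson 95% interval 4.53 to 17.8), beside 7.93% of all protein-coding genes. With FGF19 6 had a peak (7.89%, 3.67 to 16.2), beside 16.3% of all genes, and Cyp2d26 was the gene without. The same 6 genes had a peak in both lists, beside 4.31% of all genes, and peaks of the 2 lists shared at least 1 bp at 4 of them (Cyp2c29, Cyp2e1, Cyp3a11 and Cyp3a25), beside 3.61%. In either list the genes with a peak were 9.21% of these P450 genes and 19.9% of all genes. These intervals, and those below, cover counting error only.

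Every one of the 36 peaks overlapped a gene body and an exon of it and touched no other annotated gene, and 2 reached past an end of the gene, the FGF19 peaks at Cyp2e1 exon 1 and Cyp2d9 exon 9. The distance limit decided nothing: no peak lay wholly outside a gene body and within 5 kb of it, and the nearest peak to a gene without one was 15100 bp from Cyp2w1. The weakest peak by the authors' q-value had a -log10 q of 3.56 with vehicle (Cyp3a25 exon 13) and 3.53 with FGF19 (Cyp2f2 exons 2 and 3). The lowest pileup, the number of extended tags over the summit, was 17 at these genes with vehicle and 16 with FGF19, where the lists went down to 11 and 10.

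In the grouping by subfamily used here, peaks were listed at drug and steroid genes and at Cyp2f2. Of 43 genes in the Cyp2a, Cyp2b, Cyp2c, Cyp2d, Cyp2e and Cyp3a subfamilies, 6 had a peak in either list (14.0%, beside 19.9% of all genes), with 18 vehicle and 14 FGF19 peaks between them. The group for fatty acids and eicosanoids held 24 genes: 8 Cyp2j, 6 Cyp4a, 8 Cyp4f, 1 Cyp2u and 1 Cyp4v gene. Of these 24, 0 had a peak in either list. The groups are not exclusive by function. Cyp2c29, counted with the drug and steroid genes, also oxidizes arachidonic acid, so 0 of 24 does not cover every eicosanoid P450 gene. Among the 9 remaining genes Cyp2f2 alone had peaks. Within the drug and steroid group the 4 Cyp2a and 5 Cyp2b genes had none, including the CAR target subfamily Cyp2b, and peaks fell on 1 of 15 Cyp2c, 2 of 9 Cyp2d, 2 of 9 Cyp3a and the only Cyp2e gene. A gene without a listed peak had no region past the authors' threshold at this depth, which does not show that SHP was absent there. How well tags could be placed at genes without a peak, some with close copies nearby, was not examined.

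Cyp2e1, the enzyme that oxidizes ethanol, acetaminophen and small solvents, held the most peaks, 7 with vehicle and 6 with FGF19. It lies at chr7:147949638-147960874 on the plus strand and has 9 exons, of which 8 carried a peak in at least 1 list and 5 in both. Exon 3 was the only exon without one. Genes with at least 7 vehicle peaks within 5 kb numbered 5 of 22380, and genes with at least 6 FGF19 peaks numbered 11.

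At Cyp2e1 exon 9, the last, 91 tags covered the vehicle summit (exact Poisson 95% interval 73.3 to 112) and 86 the FGF19 summit (68.8 to 106). Fold enrichment, the ratio of pileup to the input background around it, stood at 11.9 in the vehicle list (30th largest) and 17.3 in the FGF19 list (12th largest). The local background was 6.70 tags with vehicle and 4.04 with FGF19. At exon 7, printed above, pileups were 62 and 47 and fold enrichments 10.1 and 7.44. At exon 5 they were 53 and 47, with fold enrichments of 6.24 and 8.63. These 3 exons had the highest pileups of the gene in both libraries.

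Exons 2 and 6 of Cyp2e1 were weaker in both libraries. Exon 2 had a pileup of 30 with vehicle and 23 with FGF19, at fold enrichments of 4.16 and 4.55, and exon 6 had 29 and 30, at 4.55 and 5.64. Exons 4 and 8 were listed with vehicle only, with pileups of 35 and 33 and fold enrichments of 4.16 and 5.94. Exon 1 was listed with FGF19 only, with a pileup of 42 (30.3 to 56.8) and a fold enrichment of 5.98. Its summit lay 87 bp from an annotated TSS, inside the coding sequence printed above, and it was the only FGF19 promoter peak at these genes. The vehicle list held no value for exon 1, so no ratio can be given for it.

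Cyp3a11, the main mouse counterpart of the human drug and bile acid oxidase CYP3A4, held 4 vehicle and 4 FGF19 peaks. It lies at chr5:146666002-146691540 on the minus strand and has 13 exons. The peaks of both lists fell on the same exons, 10, 11, 12 and 13, and exons 1 to 9 had none. At exon 13, the last, pileups reached 93 (75.1 to 114) in the vehicle library and 97 (78.7 to 118) in the FGF19 library. Fold enrichments of 16.2 in the vehicle library and 23.9 in the FGF19 library ranked 12th and 5th in their lists. The background there was 4.79 tags with vehicle and 3.10 with FGF19, and the pileups lay within each other's intervals. On the log2 scale fold enrichment was 0.56 higher with FGF19, and background plus 1 differed by -0.50.

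Exon 12 of Cyp3a11 had pileups of 36 with vehicle and 32 with FGF19. Fold enrichment went from 9.37 to 5.14, by ratio and by difference the largest fall from vehicle to FGF19 at these genes, and the background from 2.95 to 5.42 tags. Exon 10 was alike in both libraries, with pileups of 37 and 36 and fold enrichments of 8.80 and 8.67. Exon 11 had pileups of 24 and 18 and fold enrichments of 6.22 and 4.74. Thus the order of the exons by pileup was 13 first, 10 and 12 next, and 11 lowest in both libraries, with the intervals of exons 10 and 12 overlapping in each (26.1 to 51.0 and 25.2 to 49.8 with vehicle).

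Sequence of Cyp3a11 recurs in its neighbors, which bears on where a tag could be placed. Each peak was read as all its stretches of 100 bases, the length of a tag. On exon 11, 85.8% of the stretches in the vehicle peak occurred elsewhere in mm9 with at most 2 mismatches. In the FGF19 peak on exon 11 it was 66.5%, and the copies of both were in Cyp3a41a, Cyp3a41b and Cyp3a44. At exon 12 the share was 28.5% and 24.7%, in Cyp3a16, and at exons 10 and 13 it was between 8.35% and 11.9%. How the authors' alignment treated a tag with several positions is not given in the sources used here, and its part in these values was not tested.

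Cyp3a25, another liver Cyp3a gene at chr5:146788770-146821194, had 1 peak in each list, both on its exon 13 of 13. Pileups were low, 18 (10.7 to 28.4) in the vehicle library and 24 (15.4 to 35.7) in the FGF19 library. Fold enrichment went from 3.93 to 7.57, as a ratio the largest rise from vehicle to FGF19 at these genes (by difference it was Cyp3a11 exon 13), while the background went from 3.83 to 2.30 tags. The pileup intervals overlap. Stretches shared with Cyp3a59 made up 7.82% and 7.35% of these peaks.

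Cyp2c29, a phenobarbital-inducible enzyme that oxidizes drugs and arachidonic acid, held the largest fold enrichment of these genes in each list, while Cyp3a11 exon 13 and Cyp2e1 exon 9 had higher pileups. On its exon 9 of 9 the vehicle library had 79 tags at the summit (62.5 to 98.5) and the FGF19 library 77 (60.8 to 96.2). Its fold enrichments, 26.7 in the vehicle library and 24.2 in the FGF19 library, ranked 2nd of 1508 and 4th of 3155. The local background was 1.99 tags with vehicle, the lowest value in that list, and 2.22 with FGF19. The vehicle value was close to the expectation over the whole genome, 1.986 tags (tags times extension, divided by genome size). The vehicle fold enrichment thus has the smallest denominator of its list. The pileup intervals of the 2 libraries overlap, and both libraries place this peak among their 4 largest fold enrichments.

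The other Cyp2c29 peaks were in 1 list each. With vehicle, exon 5 had a pileup of 28, exon 7 of 32 and exon 8 of 23, with fold enrichments of 3.77, 8.61 and 5.39. With FGF19 a peak with a pileup of 16 and a fold enrichment of 4.74 reached into exon 3, and its summit was in the intron 73 bp from the exon. The annotation has 15 Cyp2c genes, and no 100-base stretch of the 6 Cyp2c29 peaks recurred elsewhere in mm9 at up to 2 mismatches. The best other match of its exon 9 peaks was to Cyp2c38, at 86.3% identity for the vehicle peak and 85.5% for the FGF19 peak.

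Cyp2f2, which activates naphthalene and is known from lung club cells as well as liver, lies at chr7:27904928-27918679 and had 2 peaks in each list, none of them shared. With vehicle they were on exon 8, with a pileup of 24 and a fold enrichment of 6.15, and on exon 10, the last, with a pileup of 22 and a fold enrichment of 4.76. The exon 8 summit was classed as promoter because the TSS of an internal transcript was 592 bp away, while it lay 11357 bp downstream of the start of the main transcript. With FGF19 they spanned exons 2 and 3 (pileup 16, fold enrichment 4.02) and the end of exon 9 (18 and 4.64, with the summit 8 bp into the intron).

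Both Cyp2d genes had weak peaks. At Cyp2d9, a testosterone hydroxylase of male liver (chr15:82282807-82287257), the vehicle peak was on exon 1, 155 bp from the TSS, with a pileup of 24 (15.4 to 35.7) and a fold enrichment of 4.28. The FGF19 peak was at the other end, across exons 8 and 9, with a pileup of 21 (13.0 to 32.1) and a fold enrichment of 5.78. Stretches that recur in other Cyp2d genes and pseudogenes made up 31.2% of the vehicle peak and 15.8% of the FGF19 peak. At Cyp2d26, a relative of the human drug oxidase CYP2D6 (chr15:82620537-82624675), the vehicle peak on exon 7 had a pileup of 17 (9.90 to 27.2) and a fold enrichment of 4.24, and FGF19 had no peak.

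**Figure D1:**
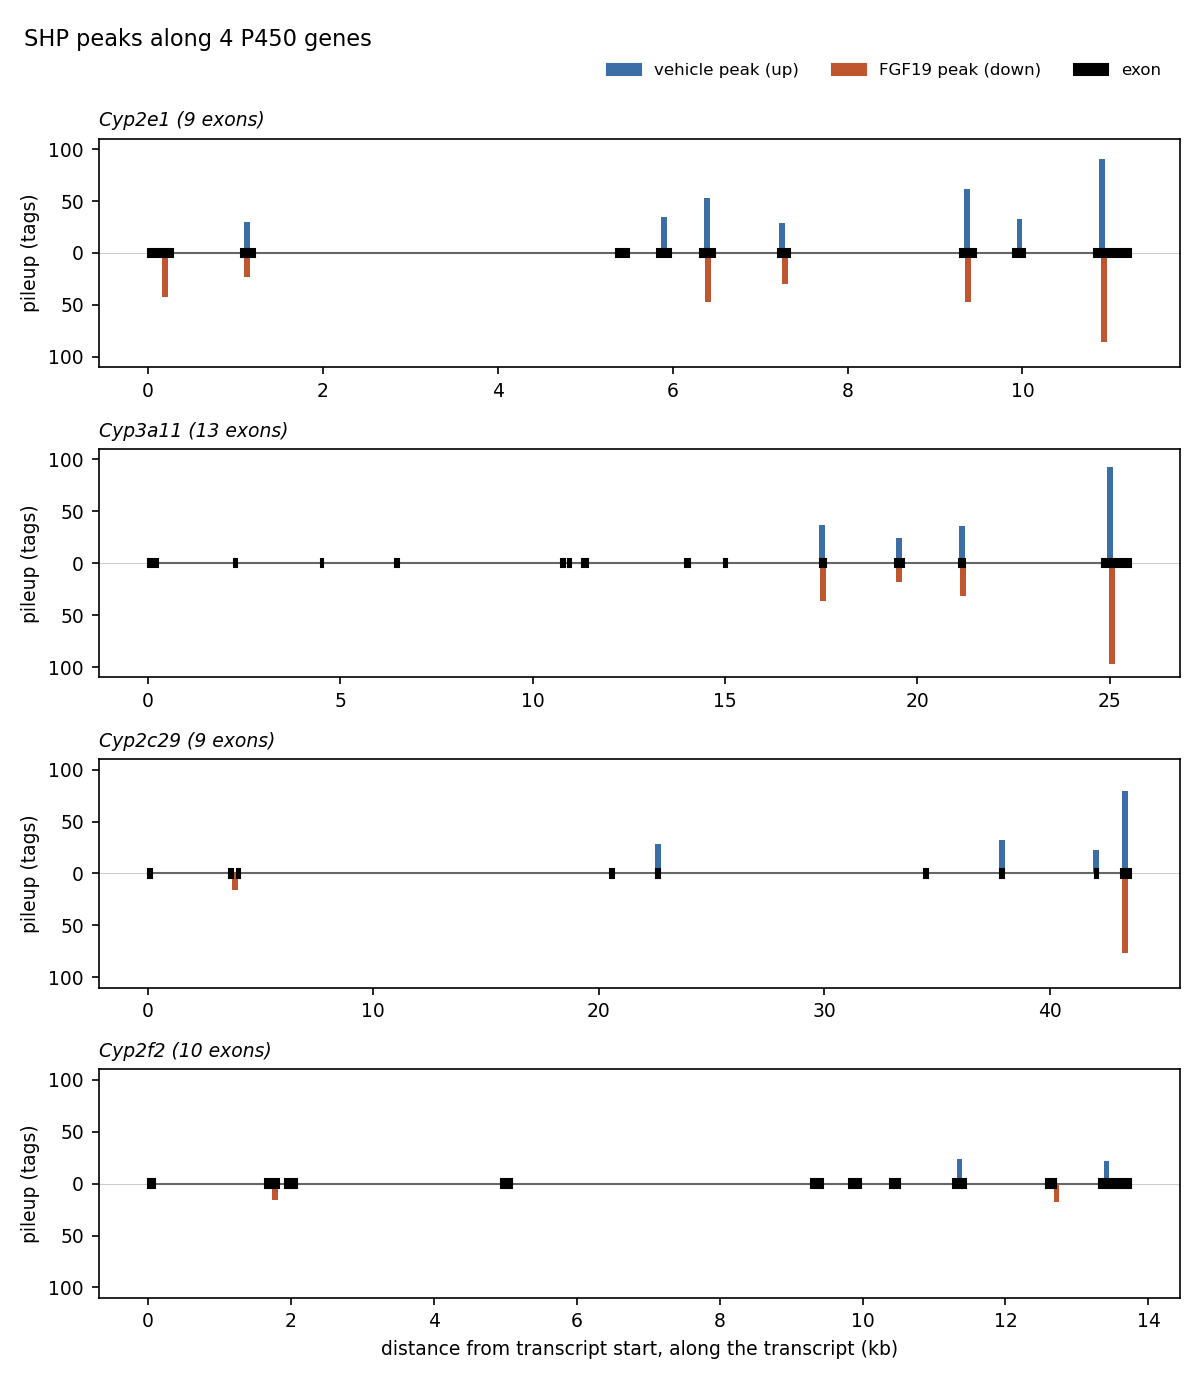
Position and pileup (tags at the summit) of SHP peaks along Cyp2e1, Cyp3a11, Cyp2c29 and Cyp2f2, with the distance from the transcript start in kb on the x axis, exons as black blocks, vehicle peaks drawn upward and FGF19 peaks downward. The tallest bars stand on the last exons of Cyp2e1, Cyp3a11 and Cyp2c29, with pileups of 91, 93 and 79 with vehicle and 86, 97 and 77 with FGF19.

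The peaks followed the exons. All 20 vehicle summits and 14 of 16 FGF19 summits stood in an exon of the gene's main transcript, 17 and 11 of them in coding sequence. Exons away from any TSS, by more than 1 kb, held 18 of 20 vehicle summits (90%, 69.9 to 97.2) and 13 of 16 FGF19 summits (81.25%, 57.0 to 93.4). Over all peaks of the lists this share was 17.5% and 8.68%, since promoters held 72.7% of the vehicle list and 81.8% of the FGF19 list. Exons made up 6.10% of the bases searched around the 76 genes and 7.45% of the gene bodies of the 7 genes with peaks.

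Peaks in other genes were mostly exonic too once promoters were set aside. Among other peaks inside genes and away from a TSS, 246 of 311 vehicle summits (79.1%, 74.2 to 83.2) and 261 of 380 FGF19 summits (68.7%, 63.9 to 73.1) were exonic. At the P450 genes the same share was 18 of 18 with vehicle (100%, 82.4 to 100) and 13 of 15 with FGF19 (86.7%, 62.1 to 96.3), and these intervals overlap those of the other genes. All intervals on shares of peaks treat peaks as independent, but peaks share genes, several each at Cyp2e1 and Cyp3a11. Such intervals may therefore be too narrow. Counted by gene, 6 of the 76 (7.89%) had such a peak in each list, beside 1.15% of all protein-coding genes with vehicle and 1.23% with FGF19. These gene counts rest on the peaks that chose the regions and have no test.

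The fit to the exons was close. Over both lists 23 peaks overlapped 1 inner exon and no other, and in 21 of them the summit was inside the exon and within 50 bp of its middle. The median distance from summit to exon middle was 5 bp. These exons had a median length of 163 bp and the peaks a median length of 329 bp, and 18 of the 23 peaks covered the whole exon. At Cyp2e1 exon 7, for example, the summit lay 3.5 bp upstream of the exon middle with vehicle and 0.5 bp upstream with FGF19.

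**Figure D2:**
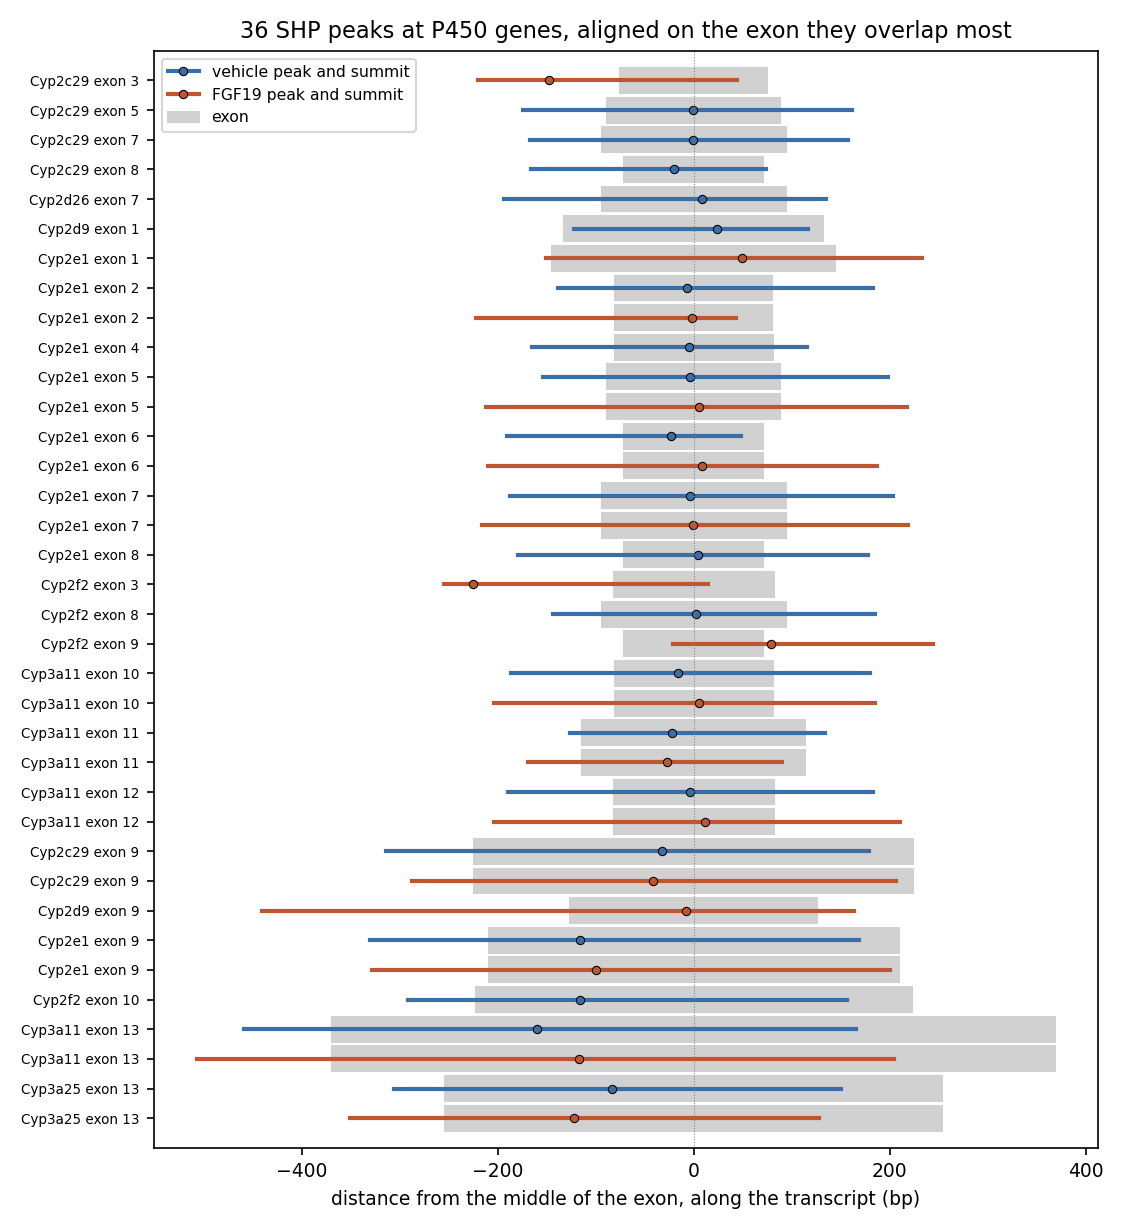
Each of the 36 peaks as a line with its summit as a point, blue for vehicle and orange for FGF19, against the exon it overlaps most in grey, with the distance from the exon middle in bp on the x axis, along the transcript. Summits on inner exons gather near 0 apart from the FGF19 peaks at Cyp2c29 exon 3 and at Cyp2f2 exons 3 and 9, and summits on the long last exons of Cyp3a11, Cyp3a25, Cyp2e1 and Cyp2f2 lie upstream of the middle.

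Peaks did not fall on every exon. The 7 genes have 72 exons, of which 20 carried a vehicle peak, 18 an FGF19 peak (some FGF19 peaks span 2 exons), 11 both and 27 either. The median exon length was 188 bp with a peak and 149 bp without. In the 5 CYP2 genes the inner exons counted from the 3′ end have nearly fixed lengths, and the exon of 188 bp, the third from the end and printed above for Cyp2e1 and Cyp2f2, carried a vehicle peak in 4 of 5 genes and an FGF19 peak in 1. The last exon carried one in 3 of 5 genes in each list. The exon of 150 to 153 bp carried none with vehicle and 1 with FGF19.

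The exon that encodes the heme-binding cysteine, found in the reading frames by the signature F..G.R.C.G of the family, is the last exon of the CYP2 genes and exon 12 of 13 in Cyp3a11 and Cyp3a25. That codon was inside a peak of both lists in Cyp2c29 (residue 435), Cyp2e1 (residue 437) and Cyp3a11 (residue 443). It was inside an FGF19 peak only in Cyp2d9 and a vehicle peak only in Cyp2f2, and in no peak in Cyp2d26 and Cyp3a25.

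The 3 strongest peaks of these genes in each library, by pileup and by fold enrichment, were on last exons. With vehicle the 5 last-exon peaks had a median pileup of 79 (range 18 to 93) and a median fold enrichment of 11.9, and the 15 others had 30 (17 to 62) and 5.94. With FGF19 the 5 last-exon peaks had a median pileup of 77 (21 to 97) and a median fold enrichment of 17.3, and the 11 others had 30 (16 to 47) and 5.14. The ranges overlap, because the last-exon peaks of Cyp3a25, Cyp2f2 and Cyp2d9 were low, and those of Cyp2e1, Cyp3a11 and Cyp2c29 were all above every other peak in both libraries. Exon length and pileup had a Spearman correlation of 0.05 over the 20 vehicle peaks and 0.57 over the 16 FGF19 peaks, as a description of peaks that share genes and libraries.

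Set within the lists, these peaks were strong by fold enrichment and less so by pileup. Median fold enrichments of 6.05 (vehicle) and 5.88 (FGF19) stood beside list medians of 4.14 and 4.05, and beside 5.34 and 4.99 for other exonic peaks away from a TSS. Of these peaks 18 of 20 (vehicle) and 15 of 16 (FGF19) exceeded the median fold enrichment of their list, and 7 peaks in each list were among its 100 largest. Those 7 were all on Cyp2c29, Cyp2e1 and Cyp3a11, except for the FGF19 peak of Cyp3a25. The matching shares of other exonic peaks were not counted. Pileup was above the list median of 24 in 13 of 20 and 9 of 16. The median local background was 4.28 (vehicle) and 3.25 (FGF19) tags at these genes, lower than the 4.84 and 5.25 of the lists. Other exonic peaks away from a TSS had median backgrounds of 3.83 and 3.94 tags. Beside them the background at these genes was higher with vehicle and lower with FGF19. Median pileup was 31 in each list at these genes, and 25.5 and 25 at those other exonic peaks.

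**Figure D3:**
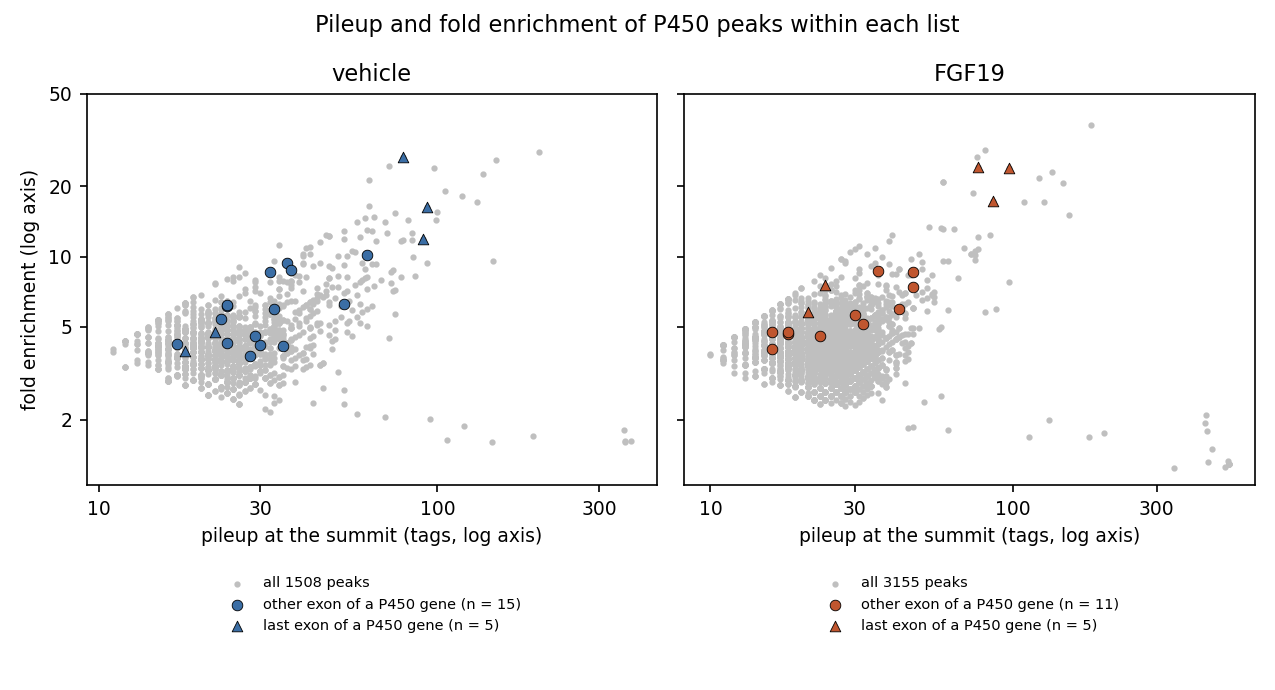
Pileup at the summit (tags) against fold enrichment, both on log axes, for all peaks of each list in grey and for the P450 peaks in color, with last exons as triangles and other exons as circles. In each panel 3 triangles, the last exons of Cyp2c29, Cyp3a11 and Cyp2e1, stand at pileups of at least 77, above the circles, which reach 62 with vehicle and 47 with FGF19.

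To ask whether FGF19 changed SHP binding where both lists had a peak, the 11 common regions were compared. They lie on Cyp2e1 (5), Cyp3a11 (4), Cyp2c29 (1) and Cyp3a25 (1), and their summits were 3 to 43 bp apart between the lists, with a median of 16 bp. Pileup as deposited was higher with FGF19 in 3 and lower in 8, in a smaller library than that of vehicle. The direction turned with the scaling: divided by the tags of each library, pileup was higher with FGF19 in 8 and lower in 3, and scaled for tags and extension it was higher in 6 and lower in 5. On the last scale the ratio of FGF19 to vehicle pileup had a median of 1.00 and ranged from 0.797 (Cyp3a11 exon 11, 95% counting interval 0.407 to 1.53) to 1.42 (Cyp3a25 exon 13, 0.737 to 2.77). The interval held 1 in all 11 regions. The narrowest intervals were at Cyp3a11 exon 13, with a ratio of 1.11 (0.825 to 1.49), at Cyp2e1 exon 9, with 1.00 (0.739 to 1.36), and at Cyp2c29 exon 9, with 1.04 (0.747 to 1.44).

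Fold enrichment moved more than pileup. It was higher with FGF19 in 6 regions and lower in 5, with a median log2 ratio of 0.13 and a range from -0.87 at Cyp3a11 exon 12 to 0.94 at Cyp3a25 exon 13. Over the 678 common regions of the series the median was -0.02. The local background, not scaled for tags or extension, was lower with FGF19 in 8 of the 11 regions. At Cyp3a11 exons 10 and 11 it was nearly equal, 3.32 and 3.27 tags, and 3.02 and 3.01 tags. Fold enrichment and pileup went opposite ways in 3 regions by pileup as deposited and in 4 by pileup scaled for tags and extension. The part of the input background in the fold enrichments can be read from the values above, and no library was repeated to show its spread. The 11 regions were chosen because both lists had a peak there, so places with a peak in 1 list only are outside this comparison. With 1 pooled library per group, whether SHP binding changed at these 11 regions could not be tested.

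**Figure D4:**
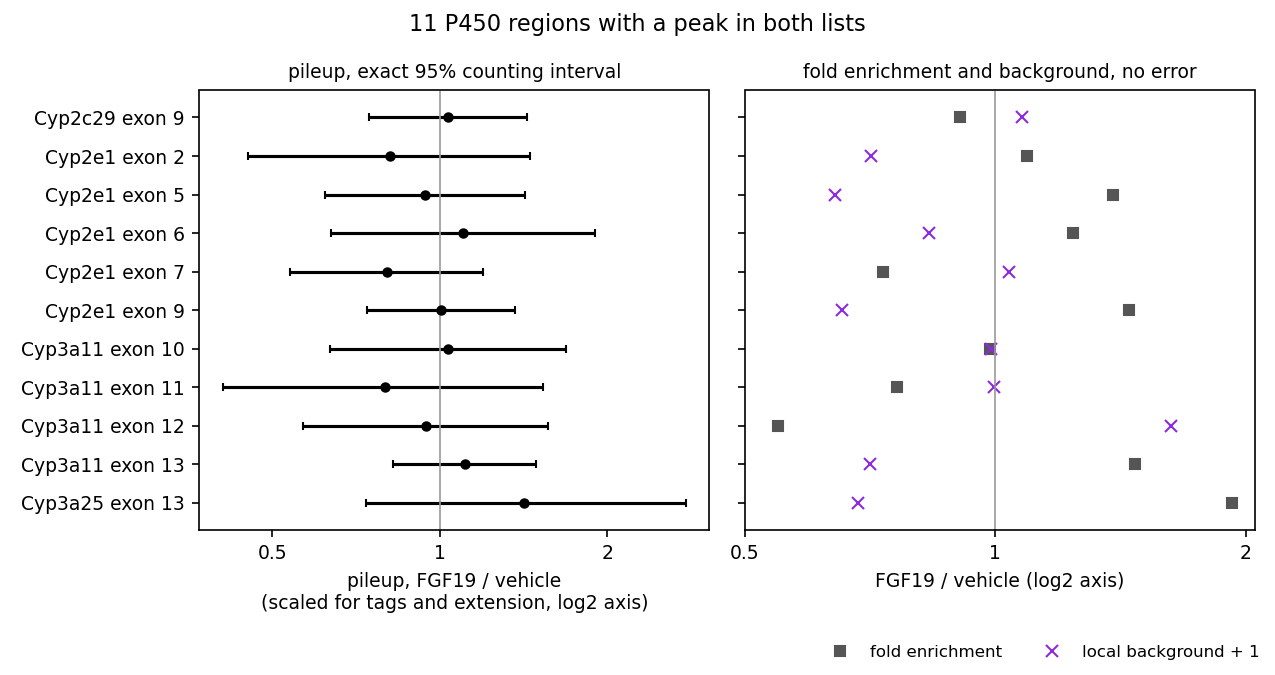
Ratio of FGF19 to vehicle on log2 axes for the 11 regions with a peak in both lists, as scaled pileup with exact 95% counting intervals (left) and as fold enrichment (squares) and local background plus 1 (crosses), which have no error (right). The background is not scaled for tags or extension. All 11 pileup intervals cross 1, while fold enrichment spreads from log2 -0.87 to 0.94 with the background mostly on the opposite side.

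The peaks found in 1 list only had lower medians than the common ones, with ranges that overlapped. The 9 vehicle-only peaks had pileups of 17 to 35 and a median fold enrichment of 4.76 (3.77 to 8.61), and the 11 vehicle peaks in common regions had pileups of 18 to 93 and a median of 8.80 (3.93 to 26.7). The 5 FGF19-only peaks had pileups of 16 to 42 and a median fold enrichment of 4.74 (4.02 to 5.98), and the common ones had 18 to 97 and 7.57 (4.55 to 24.2). Cyp2c29 exon 7 was the highest of the vehicle-only peaks by fold enrichment, and Cyp2e1 exon 1 the highest of the FGF19-only peaks. The lists give no value where a group has no peak, so it was not tested whether binding differed at these 14 places.

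Copies elsewhere in the genome touched 14 of the 36 peaks. The other 22 had no 100-base stretch with another place in mm9 at up to 2 mismatches, and these were all peaks of Cyp2c29, Cyp2f2 and Cyp2d26 and all of Cyp2e1 but those of exon 9. The Cyp2e1 exon 9 peaks held such stretches in 12.0% of their positions with vehicle and 18.6% with FGF19, with matches in 2012 and 2011 annotated genes. With those 14 peaks set aside, 4 genes kept a vehicle peak and 3 an FGF19 peak.

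Sequence within 100 bp of the summits was poorer in G and C than in the lists, at a median of 46.3% with vehicle and 44.8% with FGF19. All peaks had 63.7% and 68.2%, and other exonic peaks 52.0% and 52.2%. Consensus letters were searched on both strands. The nuclear receptor core AGGTCA was near 3 of 20 vehicle summits (Cyp2d9 exon 1, Cyp2d26 exon 7 and Cyp2c29 exon 7), beside 9.08% of all vehicle peaks, and 2 of 16 FGF19 summits (the peak over Cyp2f2 exons 2 and 3, and Cyp2e1 exon 7), beside 7.13%. At Cyp2e1 exon 7 the summits of the lists were 3 bp apart, and the vehicle window printed above ends inside the match. Its listing with FGF19 only is therefore an effect of the window edge. Its longer form AAAGGTCA, which holds the core, was near none, beside 0.928% and 0.412% of all peaks, and so was the direct repeat spaced by 1 base, a known HNF4A and RXR site (0.133% and 0.0634%).

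Letters typical of promoters were searched too. The SP1 box CCCCGCCCC was near no summit at these genes, beside 13.1% of all vehicle and 14.8% of all FGF19 peaks. The NF-Y core ATTGGC was near 2 vehicle summits (Cyp2e1 exons 4 and 9) and 1 FGF19 summit (Cyp2e1 exon 9), beside 11.2% and 11.1%, and the exon 9 match stands in the sequence printed above. The YY1 core AANATGGC was near 1 summit in each list, Cyp2d9 exon 1 with vehicle and Cyp2f2 exon 9 with FGF19, beside 9.75% and 7.54%.

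The other genes of the P450 system, from a list of 25 electron donors, heme enzymes, epoxide hydrolases, regulators and CYP1 genes, had peaks at promoters and in exons. Of the 24 found in the annotation, 9 had a vehicle peak, 12 an FGF19 peak, 7 both and 14 either, beside 7.93%, 16.3%, 4.31% and 19.9% of all genes. The list was chosen with earlier results of these data known, so its counts are a description and were not tested. The strongest peak of the gene was at a promoter in 6 of the 9 and in 5 of the 12. Over all peaks of the lists, counted by peak and not by gene, promoters held 72.7% and 81.8%, which is an unlike measure. Por, which passes electrons to every P450 of the endoplasmic reticulum, had a vehicle peak 2 bp from its TSS (pileup 33, fold enrichment 4.30) and none with FGF19.

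Among the heme genes Alas1, which makes the rate-limiting enzyme of heme synthesis, had a promoter peak in both lists, with pileups of 30 and 35 and fold enrichments of 3.92 and 4.12. Alad also had promoter peaks in both, with pileups of 46 and 47 at fold enrichments of 2.72 and 1.86. Uros and Fech had one with FGF19 only (4.30 and 3.86). Cpox had an FGF19 peak in an exon (3.49).

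Of the regulators, Nr1i3, which encodes CAR, had a vehicle peak 5 bp from a TSS with a pileup of 49 and a fold enrichment of 4.34, and none with FGF19. Ppara had promoter peaks in both lists, with fold enrichments of 2.91 and 4.08. Hnf4a had its strongest vehicle peak in an intron (5.35) and an FGF19 peak in an exon (3.53), and Rxra had an exonic FGF19 peak (4.12). Nr1i2, which encodes PXR, Ahr and Arnt had no peak.

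The exonic pattern of the drug P450 genes was also seen at some of these. Cyp1a2, the liver enzyme for caffeine and aromatic amines, had its strongest peak in an exon in both lists (pileups 20 and 15, fold enrichments 5.41 and 4.82). Pgrmc1, a heme protein that binds P450 enzymes, had its strongest peak in an exon with pileups of 38 and 37 and fold enrichments of 8.32 and 9.93, beside a promoter peak in each list. Ephx2, which hydrolyzes fatty acid epoxides, had an exonic peak with FGF19 only (5.40). Cyp1a1 had a promoter peak with vehicle (3.46) and one outside the gene with FGF19 (4.40).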

How the data were processed

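SHP ChIP-seq of mouse liver was analysed from the deposited peak lists, not from reads. The authors aligned reads to mm9 with Bowtie 1.0.0, allowing 2 mismatches (base calls by CASAVA 1.8.2, per the submitters' processing notes), and called peaks against each group's input with MACS 2.0.10.20130501 at a q-value of 0.05, keeping at most 1 tag per position. In the deposited lists pileup is the signal, the coverage of extended ChIP tags at the summit. Fold enrichment is the ratio that the authors' peak caller formed from pileup and local background, and each peak carries the authors' -log10 q-value, with its -log10 p-value unused here.

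Local background was computed as (pileup + 1) / fold enrichment - 1. Genes, exons and TSS came from GENCODE M1 on the same build. The main transcript had the longest coding sequence. A summit within 1 kb of a TSS was called promoter, then exon, intron or intergenic. Peaks were common when they shared 1 bp. Pileup intervals are exact Poisson, ratio intervals exact conditional binomial after scaling by tags and extension, and percentages have Wilson intervals, all 95%. They leave out that a summit is a chosen maximum and that peaks share genes. Copies were searched with BLAST+ 2.17.0 and an ungapped count of 100-base stretches.

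Every member with a peak is described, and sequences follow a rule: promoter peaks, the common regions with the largest fold enrichment, and the largest rise and fall. Members and lists were chosen with earlier results of these data known. The symbol Cyb5a was not found in the annotation, and 1 gene of the list of P450 system genes is not reported here and is left out of its counts. The functions were tested on simulated data and passed 7 of 7 checks. Alternatives covered peak thresholds, overlap, annotation and the measure of binding. Work was done in Python 3.11.15 with scipy 1.17.1, pandas 2.3.3, numpy 2.4.6 and matplotlib 3.10.9, and sequence was read with samtools 1.23.1 and pyfaidx 0.9.0.4.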

Additional observations from a re-analysis of the deposited data

How the results depend on the processing

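With peaks linked within 0 or 10 kb, at a -log10 q of at least 3, or by nearest gene, the numbers of genes (7, 6 and 6 in both lists) and peaks (20 and 16) were as reported. These settings could not change them: every peak overlapped its gene body and no other gene, the next peak was 15100 bp away, and the lowest -log10 q was 3.53. With the FGF19 list shortened to as many peaks as the vehicle list, 5 genes and 12 FGF19 peaks were left. The exonic share away from a TSS lay between 85% and 95% for vehicle peaks and between 62.5% and 91.7% for FGF19 peaks over all alternatives, lowest for FGF19 when the peak center was used in place of the summit. The median log2 ratio at common regions, 0.13 for fold enrichment, was 0.12 for pileup scaled by the tags of each library and -0.08 for pileup as deposited. For fold enrichment with the shortened FGF19 list it was 0.22, over 10 regions. An alternative chosen after seeing the data kept only peaks without another copy of any 100-base stretch: 4 genes had a vehicle peak, 3 an FGF19 peak and 3 both, with 13 vehicle and 9 FGF19 peaks, because fewer peaks were counted. No paired analysis was possible because each group is 1 pooled library and the labels give no replicate numbers, and no library could be left out. Depth and the single library per group limit what the comparison can show: with pileups of 16 to 97 tags, the counting interval of each common region's ratio spans 1.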
